A study of Homo sapiens with 18 samples.

Results

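The translation initiation and elongation factors were followed in RNA sequencing of 3 human acute myeloid leukemia (AML) cell lines. They were taken as the protein-coding genes whose symbols start with EIF1, EIF2S, EIF2B, EIF3, EIF4, EIF5, EIF6, EEF1 or EEF2, leaving out chromosome Y and the eIF2 kinases, which gave 62 genes of the 58037 gene IDs in the count table. MOLM13 cells, which carry the MLL-AF9 fusion, were cultured for 16 h as control, with 500 nM of the Menin inhibitor SNDX-50469 (VTP50469 in the labels), with 500 nM of the BET inhibitor OTX015, or with both at those doses, in 2 libraries each. MV4-11 cells, with an MLL rearrangement, were control or received 1000 nM SNDX-50469 for 16 h (2 libraries each), and OCI-AML3 cells, with mutant NPM1 and germline MLL, were control or received 500 nM SNDX-50469 for 16 h (3 libraries each). The labels say no more of the control cells than that name, MV4-11 cells grew in IMDM and the other lines in RPMI, and every group is an established line, so that the dose and the medium of MV4-11 cannot be told apart from the line. The study calls the MOLM13 and OCI-AML3 samples biologic replicates, whereas for MV4-11 nothing in the sources used here does, so that p-values for this line reflect the scatter among its libraries alone, and that scatter could be technical.

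Protein synthesis starts when eIF2 brings the initiator tRNA to the small ribosomal subunit, while eIF4E binds the cap of the mRNA and, with the scaffold eIF4G and the helicase eIF4A, recruits the ribosome through eIF3. The guanine nucleotide exchange factor eIF2B recharges eIF2, and the eIF4E-binding proteins hold eIF4E away from eIF4G until the kinase mTORC1 phosphorylates them. During elongation eEF1A delivers aminoacyl-tRNA, the eEF1B subunits recharge eEF1A, eEF2 moves the ribosome along, and eIF5A, the protein that carries the modified residue hypusine, relieves stalled ribosomes. Many genes of this machinery are known targets of the transcription factor MYC, and EEF1A2 is an isoform of eEF1A normally found in muscle and neurons.

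Library totals ran from 19320216 to 59711884 counts. Levels are CPM (counts scaled to a common library size) after TMM scaling over all 18 libraries, given as mean ± SD over the libraries of a group. A log2 fold change is given ± its standard error from a fit within 1 line, and "rose" and "fell" are kept for called genes, those with an edgeR quasi-likelihood adjusted p below 0.05 and a log2 change of at least 0.32 in size (the limit below). Of the 62 genes, 59 held counts, while EEF1G, EIF4E1B and the readthrough gene EEF1E1-BLOC1S5 held 0 counts in every library. For EEF1G, an elongation factor gene, whether this 0 reflects expression or the counting was not tested. Its level is thus uncertain, and its place in the order of levels below is unknown. EIF5A2 did not pass the filter on low counts in MOLM13, nor EIF4E3 in MV4-11, so that 58 genes were tested in each of these lines and 59 in OCI-AML3. Counts of EIF4A1 (77 to 526 a library), EIF3C and EIF3CL, EIF3G, EEF1E1, EIF4EBP3 (1 to 54), EIF5AL1 and EIF2S3B are uncertain. These genes overlap a readthrough gene or have near-identical copies. All 7 myeloid markers were detected in every line, and the defining markers CD3E, MS4A1, HBB, ALAS2, EPCAM, KRT5 and CDH1 had at most 3 counts in each library. In bulk RNA, fewer cells of a type and less RNA per cell cannot be told apart.

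The stretch before the gene start is shown for 4 members as examples. They are not the extremes of what follows, as EEF1AKMT3, EIF4EBP1, EEF2KMT and EIF5A fell further under the combination. EEF1A1 encodes the main eEF1A and was not called under any treatment. EIF4B, EIF2B3 and EIF3K had the largest falls under the combination among genes with 1 RefSeq start and the letters CACGTG in this stretch. These letters are the E-box that MYC and its partner MAX can bind, and genes whose counts are named uncertain above were left out. Sequences are the 250 bases upstream of the RefSeq start on GRCh38.p14, written along the gene's strand, with capitals for 4 motifs on either strand: the E-box, a noncanonical E-box spelled CACGCG on one of the strands, a GC box spelled GGGCGG on one of the strands, and the TATA box letters TATAAA. In these 4 stretches no match overlaps another. As EIF4B, EIF2B3 and EIF3K were picked for holding an E-box, they cannot show whether it goes with a fall.
EEF1A1 (chr6:73521033-73521282, reverse strand): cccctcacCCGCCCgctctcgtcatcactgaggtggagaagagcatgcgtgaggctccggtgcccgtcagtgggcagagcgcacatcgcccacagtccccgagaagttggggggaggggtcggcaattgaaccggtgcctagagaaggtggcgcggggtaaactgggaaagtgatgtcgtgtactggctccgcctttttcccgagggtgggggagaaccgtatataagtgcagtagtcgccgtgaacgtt
EIF4B (chr12:53006206-53006455, forward strand): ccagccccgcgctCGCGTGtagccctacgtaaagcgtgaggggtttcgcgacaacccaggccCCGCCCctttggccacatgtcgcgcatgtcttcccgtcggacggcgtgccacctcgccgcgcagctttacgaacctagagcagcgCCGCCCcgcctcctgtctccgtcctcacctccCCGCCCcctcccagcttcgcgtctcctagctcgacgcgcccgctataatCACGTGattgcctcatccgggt
EIF2B3 (chr1:44986596-44986845, reverse strand): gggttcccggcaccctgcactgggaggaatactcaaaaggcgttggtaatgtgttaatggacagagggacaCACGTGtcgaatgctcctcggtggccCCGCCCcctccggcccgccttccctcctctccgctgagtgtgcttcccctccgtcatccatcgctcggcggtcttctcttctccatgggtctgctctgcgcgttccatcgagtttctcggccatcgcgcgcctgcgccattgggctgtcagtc
EIF3K (chr19:38618938-38619187, forward strand): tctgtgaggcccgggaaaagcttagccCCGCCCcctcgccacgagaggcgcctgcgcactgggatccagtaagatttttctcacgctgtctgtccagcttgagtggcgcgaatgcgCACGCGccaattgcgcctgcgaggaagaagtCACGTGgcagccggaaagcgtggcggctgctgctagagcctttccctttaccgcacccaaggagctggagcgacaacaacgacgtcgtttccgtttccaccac

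In the EEF1A1 stretch the only match was 1 GC box, 242 bases before the start. EIF4B held an E-box 22 bases before its start, a noncanonical one 237 bases before it and 3 GC boxes. Windows were found for 49 of the 62 genes, EEF1A2 not among them, and CACGTG stood in at least 1 window of 12 of these (24.5%), against 7.73% of the 27305 genes in the table, coding or not. GC boxes stood in 39 of the 49 (79.6%, against 46.2% of all), and TATAAA in 3 (6.12%, against 13% of all). Of the 11 tested genes with an E-box 8 fell under the combination, and of the 34 without one 22 did, with median log2 fold changes of -0.50 and -0.54. For the noncanonical E-box 6 of 7 genes with it fell and 24 of 38 without it, with medians of -0.93 and -0.49. Over all 14360 tested genes 30.9% were lower under the combination, and the share among all genes with a motif was not computed. Whether a motif goes with a fall was not tested. A match of letters is a description and not a bound site.

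Elongation factors were the most abundant members in every line. Per kilobase of transcript, EEF2 (the translocase), EEF1A1 and EEF1B2 (a subunit of the exchange factor of eEF1A) ranked 1, 2 and 3 in the controls of each line, with EEF2 at 2898 CPM per kb in MOLM13, 3084 in MV4-11 and 1318 in OCI-AML3. EIF5A ranked 4 in MOLM13 and OCI-AML3 and 6 in MV4-11. All members together took 3.11% and 3.12% of the counts in the MOLM13 controls, 3.00% and 3.17% in the MV4-11 controls and 2.09% to 2.12% in the OCI-AML3 controls. In MOLM13 this share was 3.07% and 3.10% with SNDX-50469, 2.88% and 2.89% with OTX015, and 2.76% and 2.81% with both. Thus both combination libraries lay below all others of the line. In MV4-11 it was 3.24% and 3.48% after SNDX-50469, and in OCI-AML3 2.05% to 2.06%.

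SNDX-50469 alone was compared with control in MOLM13 to see what blocking Menin did to the factors. SNDX-50469 moved few of the factors past the limit: 3 of 58 were called, 1 higher and 2 lower, against 13.3% of all 14360 tested genes (8.06% higher, 5.24% lower). EIF4EBP1 (chromosome 8, 38030534 to 38060365), an inhibitor of eIF4E, was at 489 and 481 CPM in the controls and at 368 and 364 CPM after treatment. Its groups did not overlap, and it fell by 0.37 ± 0.04 on the log2 scale (edgeR adjusted p = 4.44e-12). EIF4E3, which encodes a member of the eIF4E family, fell from 14.0 ± 0.4 to 8.35 ± 0.06 CPM (-0.71 ± 0.11, edgeR adjusted p = 4.71e-07). The helicase gene EIF4A1, whose counts are uncertain, rose by 0.50 ± 0.13 from 134 and 155 counts to 207 and 233. Most other changes were small and downward: with the adjusted p alone 27 of 58 were lower and 4 higher, against 32.7% of all genes in either direction and 17.6% lower, and the median of the members was -0.13, against 0.01 over all genes. Among them EIF5A was at -0.28 ± 0.04, EIF2B3 at -0.28 ± 0.06 and EEF1B2 at -0.26 ± 0.04, changes of 1.20-fold to 1.21-fold that stayed within the limit.

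OTX015 changed 24 of 58 factors, 5 higher and 19 lower, against 48.1% of all genes called, 23.5% higher and 24.7% lower. The falls lay in eIF3 (8 of 14), eIF5A with its copy and eIF6 (3 of 3), the enzymes that modify elongation factors (3 of 5), eIF2 (2 of 9), and single genes of other groups, among them EIF4B and EEF1B2. None of the 6 genes listed here as start codon factors, EIF1AD among them, was called. EIF4EBP1 fell to 236 and 232 CPM (-1.03 ± 0.04, edgeR adjusted p = 1.39e-32), while its paralog EIF4EBP2 (chromosome 10, 70404145 to 70428618) rose from 225 and 231 to 399 and 390 CPM (0.82 ± 0.04, edgeR adjusted p = 5.32e-27). EIF4B, a cofactor that stimulates eIF4A, fell from 805 and 839 to 456 and 442 CPM (-0.85 ± 0.04). For each of these genes both OTX015 libraries lay outside the range of the controls. Besides EIF4EBP2, the rises were of EIF4A1 (0.89 ± 0.12), EIF4E3 (0.56 ± 0.10), the scaffold gene EIF4G3 (0.35 ± 0.04) and EIF4G2, a relative of EIF4G1 that does not bind eIF4E (0.35 ± 0.04). EIF4G2 lost its call without OTX015 replicate 1, and EIF4G3 without OTX015 replicate 2 or control replicate 1. Among the falls, EIF3C and EIF3CL, whose counts are uncertain, lost theirs without OTX015 replicate 2 or control replicate 2, and EEF1AKMT2 without OTX015 replicate 2 or control replicate 1. Among genes whose counts are not named uncertain above, the largest fall was that of EEF1AKMT3, a lysine methyltransferase of eEF1A. It went from 8.89 and 8.70 to 3.24 and 2.65 CPM (-1.55 ± 0.17).

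**Figure D1:**
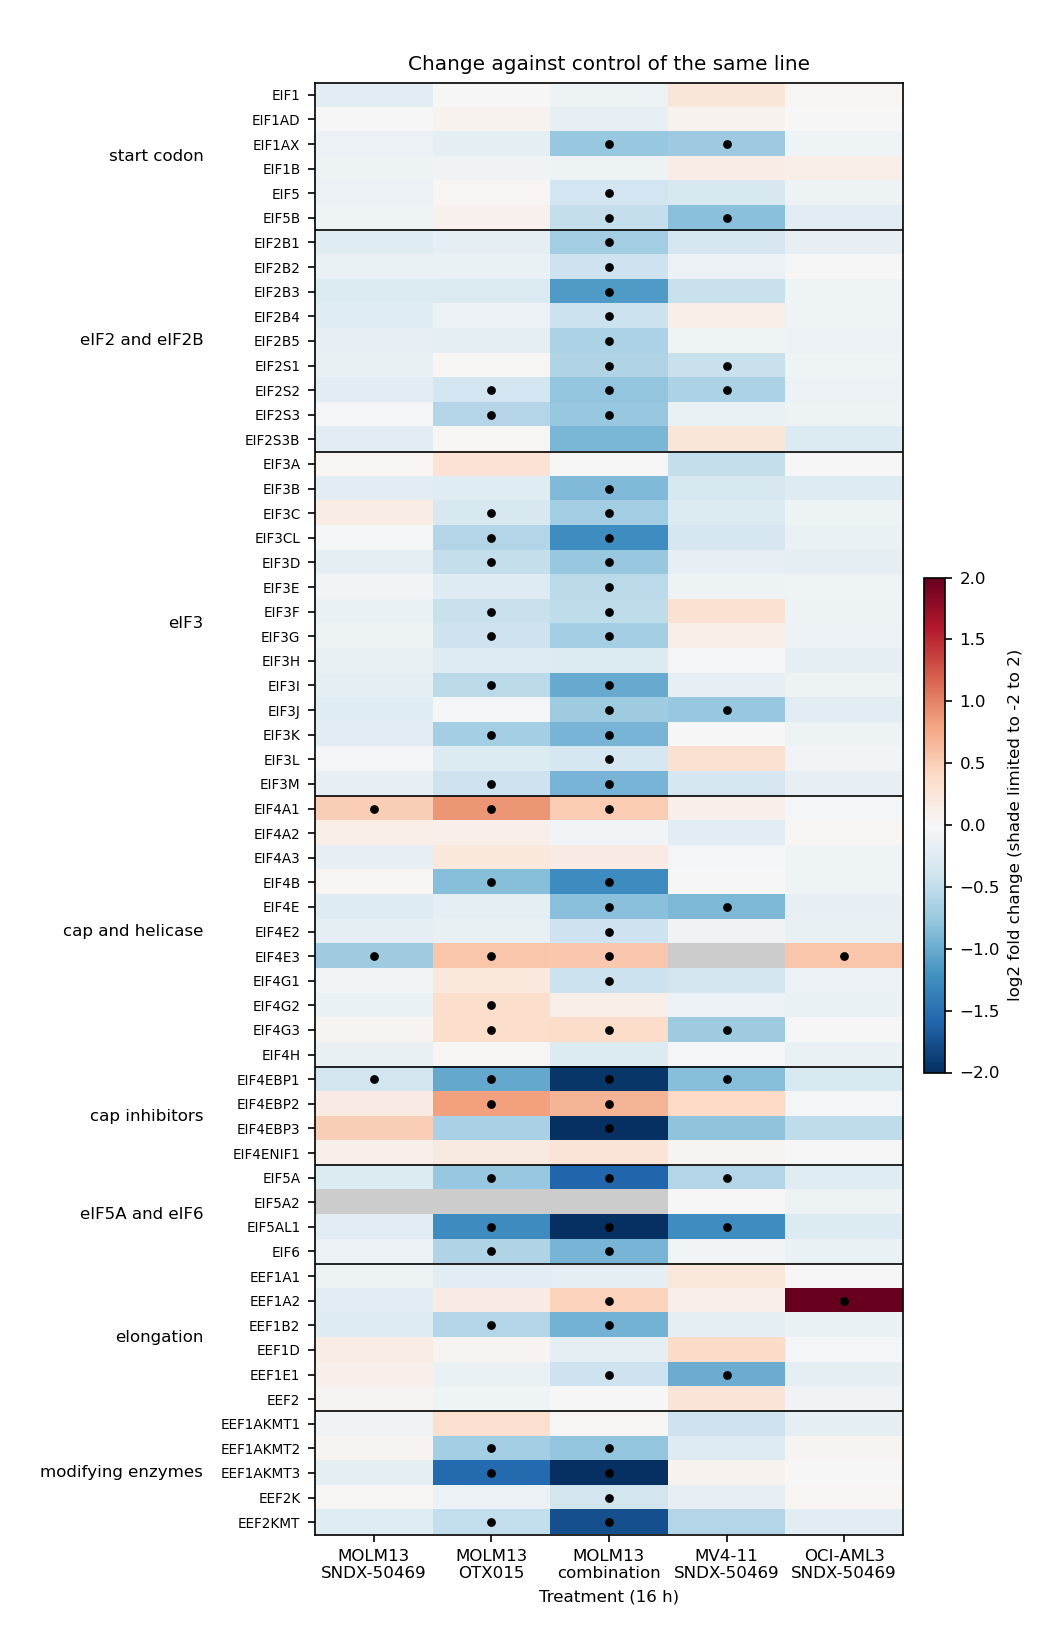
Log2 fold change of each tested factor gene (rows, grouped by role) against the control of the same line for 5 treatments (columns), shaded blue for lower and red for higher; dots mark called genes and grey cells were not tested. The combination column holds 43 dots, 38 of them on lower genes, whereas the OCI-AML3 column holds 2.

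The combination of SNDX-50469 and OTX015 lowered most of the machinery in MOLM13: 38 of 58 factors fell and 5 rose, against 62.1% of all genes called, 31.2% higher and 30.9% lower. Across the members the median was -0.52, against 0.02 over all genes. MYC, which encodes the transcription factor named above, was itself at -2.86 under the combination, -1.09 under OTX015 and -0.34 under SNDX-50469. Its part in these values was not tested. The myeloid markers moved as well, with 6 of 7 lower under OTX015 and 4 lower and 1 higher under the combination, and ribosomal protein genes took 10.1% and 9.68% of the counts in the controls and 7.06% and 7.02% in the combination. Summed lymphoid, erythroid and megakaryocyte, and epithelial and stromal markers stayed at or under 10.2, 0.277 and 2.96 CPM in MOLM13, though CD3D fell and COL1A1 rose under the combination. Their part was not tested either.

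Among the eIF2 and eIF2B genes, 8 of 9 fell under the combination, the exception being EIF2S3B, a near-identical copy with 5 to 59 counts a library. EIF2B3, which encodes the gamma subunit of the exchange factor, was at 62.7 and 64.3 CPM in the controls, 53.0 and 49.7 with SNDX-50469, 50.1 and 51.7 with OTX015, and 30.0 and 28.4 with both. The single agents did not take it past the limit, and the combination did (-1.13 ± 0.07, edgeR adjusted p = 6.12e-24). The eIF2 subunits EIF2S1, EIF2S2 and EIF2S3 fell by 0.60, 0.79 and 0.76 on the log2 scale. EIF2B1, EIF2B2, EIF2B4 and EIF2B5 ran from -0.69 to -0.41.

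Of the 14 eIF3 genes, 12 fell, and EIF3A and EIF3H were not called. EIF3I was at 363 and 359 CPM in the controls, 316 and 309 with SNDX-50469, 248 and 242 with OTX015, and 181 in both combination libraries (-1.0 ± 0.04, edgeR adjusted p = 7.1e-32). EIF3K stepped down in the same order, with 491 and 450, 401 and 395, 291 and 285, and 251 and 245 CPM (-0.93 ± 0.04). The largest subunit, EIF3A, differed from these: it was at 733 and 785 CPM in the controls, 914 and 915 with OTX015 and 768 and 770 with both, a log2 fold change of 0.02 ± 0.04 under the combination. EIF3H was at -0.27 ± 0.04. The genes listed here as start codon factors split. EIF1AX (-0.76), EIF5B (-0.47) and EIF5 (-0.38) fell, and EIF1 (-0.10), EIF1B (-0.11) and EIF1AD (-0.16) were not called. Whether EIF1AD has this role was not tested.

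The cap-binding group moved in both directions. EIF4E was at 42.1 and 43.0 CPM in the controls and at 22.4 and 25.5 CPM in the combination (-0.83 ± 0.08, edgeR adjusted p = 2.04e-15), against 36.0 and 33.4 CPM with SNDX-50469 and 38.4 and 34.7 CPM with OTX015. EIF4B reached 340 and 347 CPM (-1.26 ± 0.04). EIF4G1, the main scaffold, was at 1156 and 1240 CPM in the controls, 1341 and 1378 with OTX015 and 917 and 873 with both, so that it fell under the combination (-0.42 ± 0.04) and was within the limit, on the higher side, under OTX015 (0.21 ± 0.04). EIF4E2, a cap-binding repressor of translation, fell as well (-0.42). EIF4G3 (0.37 ± 0.04), EIF4E3 (0.53 ± 0.10) and EIF4A1 (0.50 ± 0.13) rose, EIF4G3 losing its call without control replicate 1. The helicase paralog EIF4A2, which overlaps small RNA genes such as SNORD2 and MIR1248, was at -0.06 ± 0.04.

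The eIF4E-binding proteins moved apart. Under the combination EIF4EBP1 was at 126 and 128 CPM (-1.94 ± 0.04, edgeR adjusted p = 1.1e-46), which was 3.83-fold lower than in the controls, and EIF4EBP2 was at 364 and 366 CPM (0.67 ± 0.04, edgeR adjusted p = 2.49e-23). The ratio of EIF4EBP1 to EIF4EBP2 counts was 2.17 and 2.08 in the controls, 1.42 and 1.5 with SNDX-50469, 0.590 and 0.595 with OTX015, and 0.345 and 0.350 with both. No group overlapped another. EIF4EBP3 held 16 and 32 counts in the controls and 4 and 1 in the combination, too few for a fold change to be given here.

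**Figure D2:**
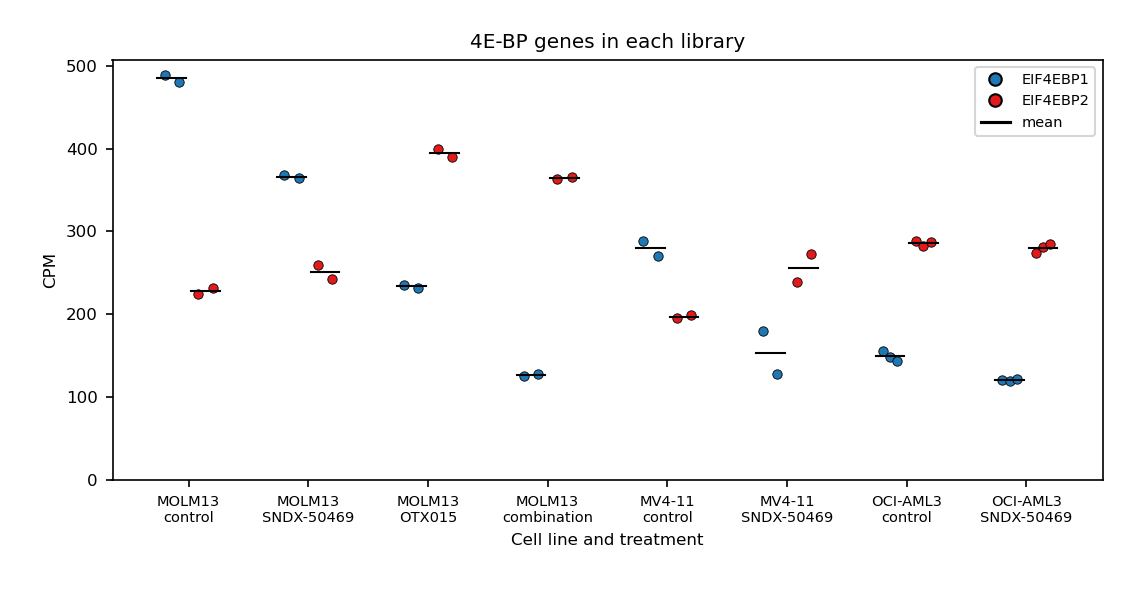
Level of EIF4EBP1 (blue) and EIF4EBP2 (red) in CPM on the vertical axis for every library of the 8 groups; black bars are means. In MOLM13 EIF4EBP1 stepped from 485 CPM in the controls to 127 CPM in the combination while EIF4EBP2 went from 228 to 365 CPM, and in OCI-AML3 EIF4EBP2 lay above EIF4EBP1 in both groups.

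EIF5A (chromosome 17, 7306999 to 7312463) fell under the combination from 835 and 809 to 266 and 280 CPM (-1.59 ± 0.04, edgeR adjusted p = 1.28e-43), with 663 CPM in both SNDX-50469 libraries and 485 and 469 CPM with OTX015. No groups overlapped, although the step with SNDX-50469 alone stayed within the limit. EIF6, which keeps the ribosomal subunits apart, went from 93.9 and 93.0 to 49.1 and 49.4 CPM (-0.93 ± 0.06). EIF5AL1, whose sequence is close to that of EIF5A, fell by 2.00 ± 0.35 on the log2 scale from 53 and 44 counts to 6 and 17. The enzymes that make hypusine, DHPS and DOHH, are not members but fell with it, by 0.52 and 1.03 on the log2 scale.

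The abundant elongation factors stood out from these falls. EEF1A1 was at 9538 and 9526 CPM in the controls and at 8559 and 8286 CPM in the combination (-0.18 ± 0.03), and EEF2 was at 9069 and 9236 CPM and then 9571 and 8947 CPM (0.01 ± 0.03). EEF1A1 libraries did not overlap, yet the change stayed within the limit, and those of EEF2 overlapped. EEF1B2 in contrast fell from 855 and 820 to 427 and 450 CPM (-0.94 ± 0.04, edgeR adjusted p = 6.74e-32). EEF1D, another exchange factor subunit, was at -0.19 and not called. EEF1E1, the multisynthetase complex subunit, was called at -0.42, on 71 and 134 counts against 130 and 156, but lost the call without combination replicate 1 (-0.08) or control replicate 2 (-0.34) and was at -0.89 without combination replicate 2.

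Of the 5 enzymes that modify the elongation factors 4 fell. EEF1AKMT3 was at 2.04 and 1.91 CPM under the combination (-2.16 ± 0.18, edgeR adjusted p = 1.71e-16), and EEF2KMT, a lysine methyltransferase of eEF2, went from 23.9 and 26.6 to 6.83 and 8.19 CPM (-1.75 ± 0.11, edgeR adjusted p = 4.72e-23). EEF1AKMT2 (-0.79) and EEF2K (-0.37), the kinase that inhibits eEF2, fell less, and EEF2K lost its call without combination replicate 2. EEF1AKMT1 was at 0.02 and was not called.

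**Figure D3:**
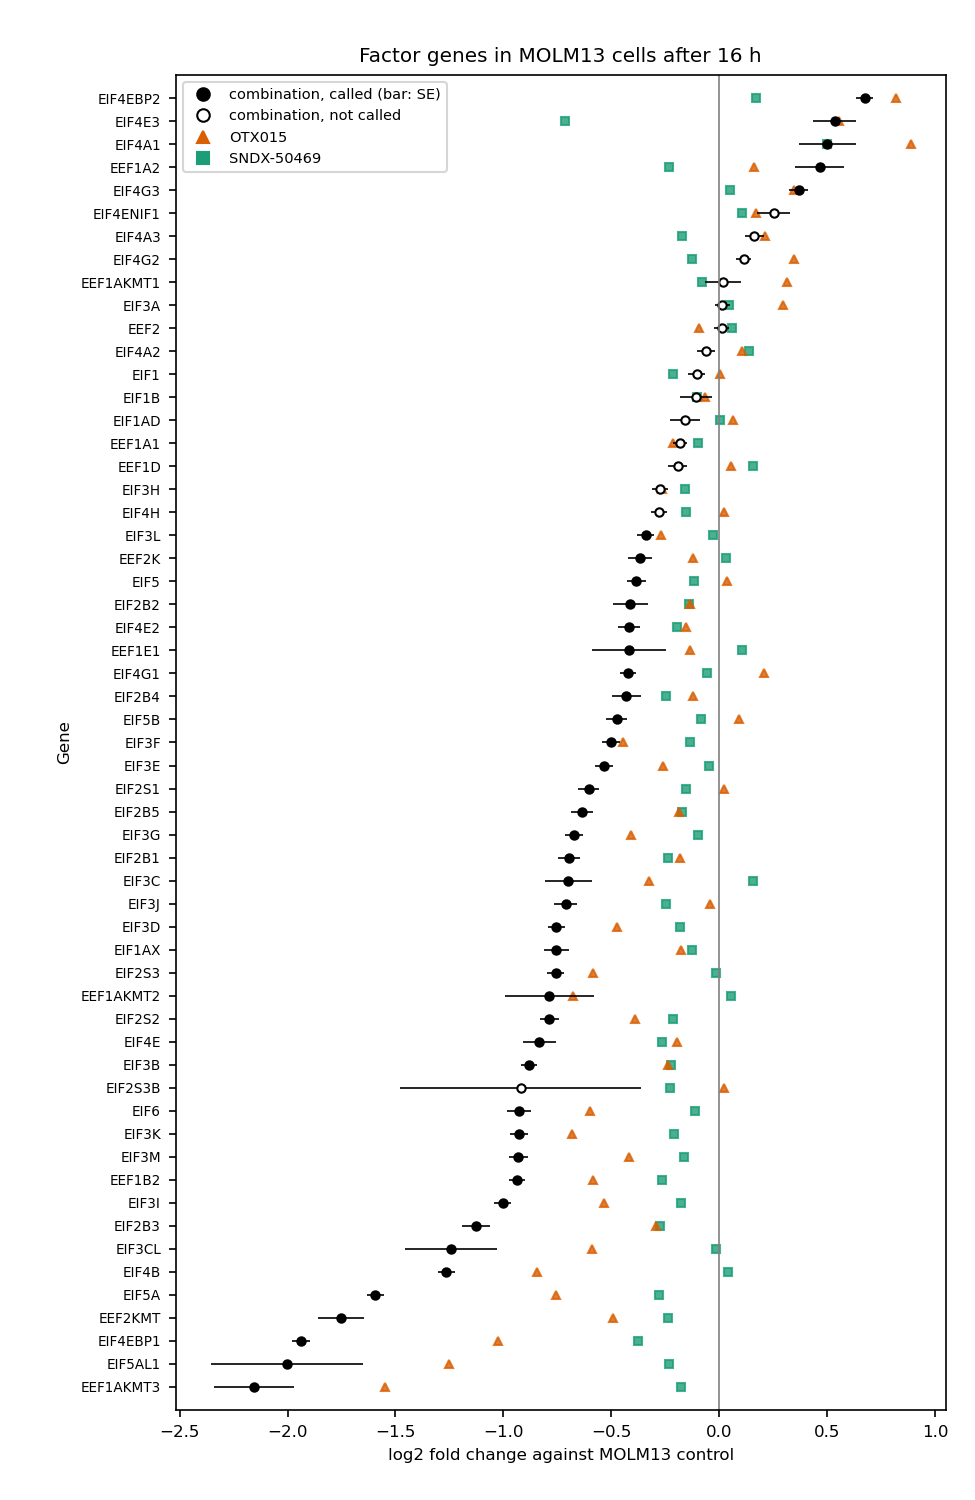
Log2 fold change against MOLM13 control for 57 tested factor genes, ordered by the combination (circles with SE bars, filled where called), with OTX015 as triangles and SNDX-50469 as squares; EIF4EBP3 is left out for its 1 to 4 counts in the combination. For EIF5A the 3 marks lie at -0.28, -0.76 and -1.59, and for EEF2 all 3 lie near 0.

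Set against each agent alone, the combination was lower for most factors that differed. Against SNDX-50469 alone 34 of 58 were lower and 4 higher (57% of all genes called, 27.9% higher and 29% lower), and against OTX015 alone 25 were lower and 0 higher (34.9% called, 18.4% higher and 16.5% lower). At an unadjusted p under 0.05, 45 of the 58 differed from OTX015 alone, against 8108 of all 14360 genes. DESeq2 also found 0 higher. EEF1A2 was called higher with all 18 libraries in 1 fit, with library totals alone, with upper-quartile factors, without combination replicate 2 and without OTX015 replicate 2, and with the adjusted p alone EEF1A2 and EEF2 were. The largest differences from OTX015 alone, leaving out EIF4EBP3 for its few counts, were those of EEF2KMT (-1.26 ± 0.11), EIF4EBP1 (-0.91 ± 0.04), EIF5A (-0.84 ± 0.04) and EIF2B3 (-0.83 ± 0.07). The interaction, which is the effect of SNDX-50469 in the presence of OTX015 minus its effect without it, was negative and called for 18 of 58 factors and positive for 2, against 24.2% of all genes called, 12.7% negative and 11.5% positive. EEF2KMT (-1.02 ± 0.14, edgeR adjusted p = 2.96e-08), EIF4A1 (-0.89 ± 0.17), EIF4G1 (-0.58 ± 0.05), EIF5A and EIF2B3 (both -0.56) and EIF4EBP1 (-0.54 ± 0.06) were negative. EIF4E3 was positive (0.69 ± 0.14), as SNDX-50469 alone lowered it to 8.31 and 8.39 CPM whereas it was at 21.0 and 19.5 CPM with OTX015 and at 20.4 and 20.2 CPM with both. EEF1A2 was positive too (0.54 ± 0.17, edgeR adjusted p = 0.00812), but this call was lost without control replicate 2 or without replicate 1 of SNDX-50469, OTX015 or the combination. These comparisons share libraries, and so their values are given side by side and are not independent of each other.

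Of 40 other genes of the pathway, 39 were tested in MOLM13. Under the combination 20 fell and 6 rose, against 30.9% lower and 31.2% higher over all genes (62.1% called). With OTX015 9 fell and 6 rose, against 24.7% lower and 23.5% higher (48.1% called). With SNDX-50469 0 fell and 1 rose, against 5.24% lower and 8.06% higher (13.3% called). The mitochondrial translation factors fell for 7 of 8, with TUFM at -1.15 and MRRF at -1.42, and 3 of 4 genes of termination and ribosome rescue fell, with GSPT1, which encodes the release factor eRF3a, at -0.96. ABCE1, which recycles ribosomes, fell by 1.13 on the log2 scale. The kinase genes split, as MTOR (0.53) and MKNK2 (1.35), which encodes a kinase of eIF4E, rose while RPTOR (-0.86) and MLST8 (-1.38), the partners of mTOR in mTORC1, fell. Of the eIF2 kinases EIF2AK2 rose (0.51) and EIF2AK4 fell (-0.35), and the eIF2 phosphatase subunit PPP1R15A rose (0.89).

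In MV4-11 cells the question was whether Menin inhibition at 1000 nM moved the same machinery. It lowered 11 of 58 factors and raised 0, against 20.7% of all genes called, 11.4% higher and 9.34% lower. At an unadjusted p under 0.05 there were 20, against 5275 of all 15486 genes. DESeq2 called 12 lower and 0 higher, against 1395 lower and 1439 higher over all genes. Other settings called 1 or 2 genes higher: EIF4EBP2 with limma-voom, EEF1D without SNDX-50469 replicate 2, and both with all 18 libraries in 1 fit. EIF4E fell from 46.0 and 41.3 to 22.2 and 24.0 CPM (-0.90 ± 0.16, edgeR adjusted p = 0.000921). EIF4EBP1 went from 289 and 271 to 180 and 128 CPM (-0.84 ± 0.17, edgeR adjusted p = 0.00206). Neither gene overlapped between the groups. The others were EIF5AL1 (-1.24), EEF1E1 (-0.99), EIF5B (-0.84), EIF3J (-0.76), EIF1AX (-0.72), EIF4G3 (-0.70), EIF2S2 (-0.64), EIF5A (-0.59) and EIF2S1 (-0.45). EIF4B, which fell with OTX015 in MOLM13, was at 879 and 785 CPM and then 820 and 822 CPM (0.00 ± 0.16). The replicates of this line were further apart than those of the others, with a common biological coefficient of variation of 13.2% against 3.06% in MOLM13, and control replicate 1 had 10.3% of its counts from the mitochondrial genome against 5.60% to 6.68% in the other 3. Without that library 9 of 58 were called, all lower, and EIF2S1, EIF2S2 and EIF5B were not among them. EIF5A lost its call without control replicate 2 or SNDX-50469 replicate 2, EIF2S2 without the latter, EIF2S1 without control replicate 2, and EEF1E1, EIF2S1 and EIF4G3 without SNDX-50469 replicate 1. Of the 40 other pathway genes 5 fell, namely ABCE1 (-0.61), GFM1 (-0.61), RPS6KB1 (-0.60), GSPT1 (-0.56) and MRRF (-0.54), and MKNK2 rose (0.82). MYC fell by 0.93 on the log2 scale, the myeloid markers ANPEP and CSF3R rose and MPO fell, and the stromal marker COL1A1 rose, with summed epithelial and stromal markers at 1.06 CPM or less. Their part was not tested.

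In OCI-AML3 cells, where MLL is not rearranged, SNDX-50469 raised 2 of 59 factors and lowered 0, against 13.1% of all genes called, 8.58% higher and 4.53% lower. At an unadjusted p under 0.05 there were 40, against 7665 of all 16611 genes. With the adjusted p alone 32 were lower and 3 higher, against 38.2% of all genes in either direction and 19.3% lower. The median of the members was -0.10, against 0.00 over all genes. EIF4EBP1 was at 144 to 155 CPM in the controls and at 120 to 121 CPM after treatment (-0.30 ± 0.03), and EIF5A at 705 to 795 and 614 to 651 CPM (-0.23 ± 0.04). Neither gene overlapped between the groups, and both changes stayed within the limit. Of the 40 other pathway genes only EIF2AK2, the eIF2 kinase that senses double-stranded RNA, was called, with a rise of 0.41 ± 0.04. MYC fell by 0.35 on the log2 scale, the myeloid marker SPI1 fell, and COL1A1 and COL1A2 rose, with summed epithelial and stromal markers at 1.69 CPM or less. Their part was not tested.

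EEF1A2 (chromosome 20, 63488014 to 63499083) held the largest rise of any member after treatment. In OCI-AML3 it was at 1.54, 1.63 and 1.59 CPM in the controls (80 to 99 counts) and at 14.0, 13.6 and 13.7 CPM after SNDX-50469 (802 to 815 counts). The groups were far apart, with a rise of 3.12 ± 0.07 on the log2 scale, 8.67-fold (edgeR adjusted p = 2.98e-12). EEF1A1 was at 3401, 3501 and 3396 CPM and then 3418, 3338 and 3405 CPM (-0.02 ± 0.02), and these groups overlapped. EEF1A2 therefore took 0.0453% to 0.0469% of the counts of both eEF1A genes in the controls and 0.400% to 0.408% after treatment. Per kilobase of transcript the OCI-AML3 controls held 0.896 CPM per kb of EEF1A2 and 977 of EEF1A1. The other member that rose in this line, EIF4E3, went from 0.963, 0.816 and 1.03 to 1.22, 1.53 and 1.38 CPM (0.55 ± 0.15, edgeR adjusted p = 0.0114), and lost its call without SNDX-50469 replicate 2.

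In MOLM13, EEF1A2 did not rise with SNDX-50469 alone: it was at 11.0 and 12.1 CPM in the controls and at 8.59 and 10.7 CPM after treatment (-0.23 ± 0.12, edgeR adjusted p = 0.138). With OTX015 it was at 11.7 and 13.8 CPM (0.16 ± 0.12), and with both agents at 17.3 and 14.9 CPM, a rise of 0.47 ± 0.11 (edgeR adjusted p = 0.000245). In MV4-11, where the gene was high to begin with, it was at 123 and 129 CPM in the controls and at 146 and 121 CPM after treatment (0.10 ± 0.15, edgeR adjusted p = 0.689). The response to SNDX-50469 was tested between OCI-AML3 and MOLM13 in 1 fit of all 18 libraries, and it differed for 2 of 59 members, against 4.1% of all genes (2.6% higher, 1.49% lower). These were EEF1A2, with a difference of 3.37 ± 0.17 (edgeR adjusted p = 1.37e-10), and EIF4E3, which rose in OCI-AML3 and fell in MOLM13 (1.29 ± 0.17, edgeR adjusted p = 6.54e-05). For EIF4EBP1 the difference was 0.10 ± 0.12 and for EIF5A 0.07 ± 0.10, and neither was called. EIF5A2 is among the 59 members, but it had no counts in MOLM13 and so no response there to compare.

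**Figure D4:**
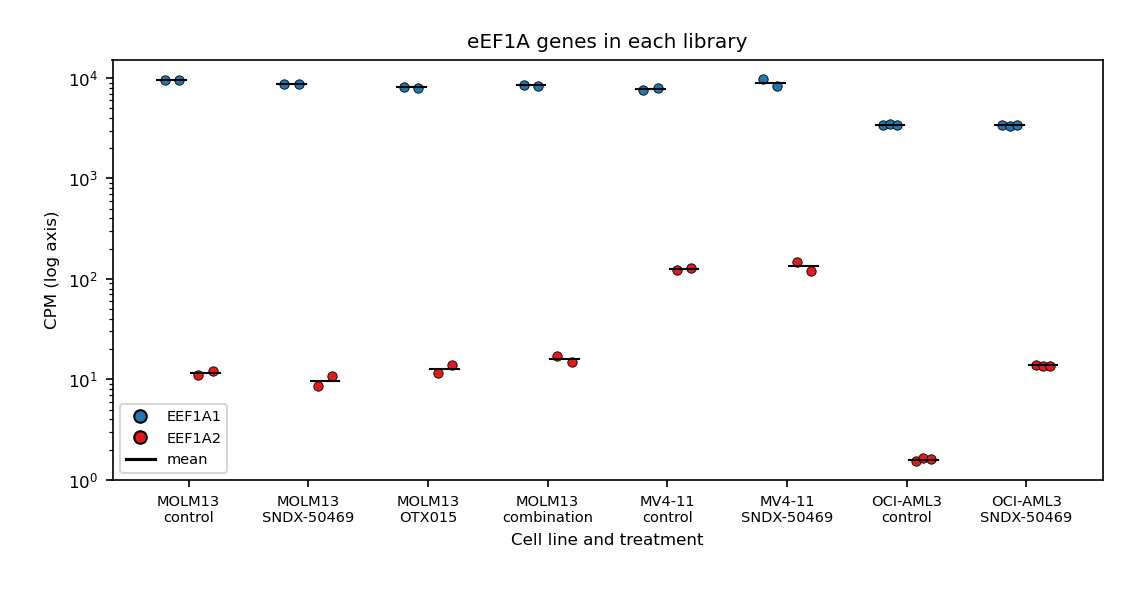
Level of EEF1A1 (blue) and EEF1A2 (red) in CPM on a log axis for every library of the 8 groups; black bars are means. EEF1A2 was at 126 CPM in the MV4-11 controls, 11.6 CPM in those of MOLM13 and 1.59 CPM in those of OCI-AML3, where it reached 13.8 CPM with SNDX-50469, while EEF1A1 was at 3338 CPM or more in each library.

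Untreated, the lines differed in many of the factors. Between MOLM13 and OCI-AML3 controls 38 of 59 were called, 29 higher in MOLM13 and 9 lower (64.2% of all genes called, 30.5% higher and 33.7% lower), between MV4-11 and OCI-AML3 controls 41, 23 higher in MV4-11 and 18 lower (67.4%, 34.3% and 33.1%), and between MOLM13 and MV4-11 controls 32, 23 higher in MOLM13 and 9 lower (63.5%, 29.3% and 34.2%). The members called were 64.4%, 69.5% and 54.2% of those tested, so that no comparison held a much larger share than all genes. The split depended on scaling: with library totals alone it was 18 higher and 11 lower in MOLM13 against OCI-AML3 and 21 and 13 in MOLM13 against MV4-11, as the median over all genes then moved from -0.05 to -0.24 and from -0.06 to -0.21. For MV4-11 against OCI-AML3 the balance turned, with 19 higher and 20 lower by library totals alone, 19 and 21 with no filter on low counts, and 20 and 21 without MV4-11 control replicate 1. EEF1A1 and EEF2 were higher in MOLM13 than in OCI-AML3 by 1.47 ± 0.06 and 1.14 ± 0.06 on the log2 scale, and in MV4-11 by 1.18 ± 0.06 and 1.23 ± 0.06. EEF2K was higher as well (1.72 ± 0.07 in MOLM13, 1.82 ± 0.07 in MV4-11), with 81.1 and 85.9 CPM in MOLM13 against 24.5 to 26.2 CPM in OCI-AML3. Of the eIF3 genes, 11 of 14 were higher in MOLM13 than in OCI-AML3 and 1 lower, the latter being EIF3J (-0.37). The 11 include EIF3C and EIF3CL, whose counts are uncertain. EIF3C was at 0.25 without MOLM13 control replicate 2 and at 0.28 without OCI-AML3 control replicate 1, both within the limit. EIF3CL lost its call without OCI-AML3 control replicate 1 (0.41) or 3 (0.43). It was at 0.60 and 0.35 without MOLM13 control replicates 1 and 2.

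Some paralogs differed widely in level between the lines, or were missing from a line. EEF1A2 was higher in MV4-11 than in OCI-AML3 by 6.30 ± 0.11 and than in MOLM13 by 3.44 ± 0.11 on the log2 scale (edgeR adjusted p = 1.46e-20 and 5.94e-16). EIF5A2, the paralog of EIF5A, held 0 counts in all 8 MOLM13 libraries, where 3 counts would be 0.132 to 0.161 CPM, against 2.82 and 4.27 CPM in the MV4-11 controls and 13.7, 14.5 and 14.7 CPM in those of OCI-AML3. With a floor of 3 counts a library, it was at least 93.2-fold higher in OCI-AML3 than in MOLM13 and at least 23.1-fold higher in MV4-11. EIF4E3 was at 14.3 and 13.7 CPM in MOLM13, 0.816 to 1.03 in OCI-AML3 and 0.252 and 0.255 in MV4-11, where it held 5 and 8 counts, and 2 and 4 after SNDX-50469. EIF4EBP1 was higher in MOLM13 than in OCI-AML3 by 1.70 ± 0.09 and than in MV4-11 by 0.79 ± 0.10.

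**Figure D5:**
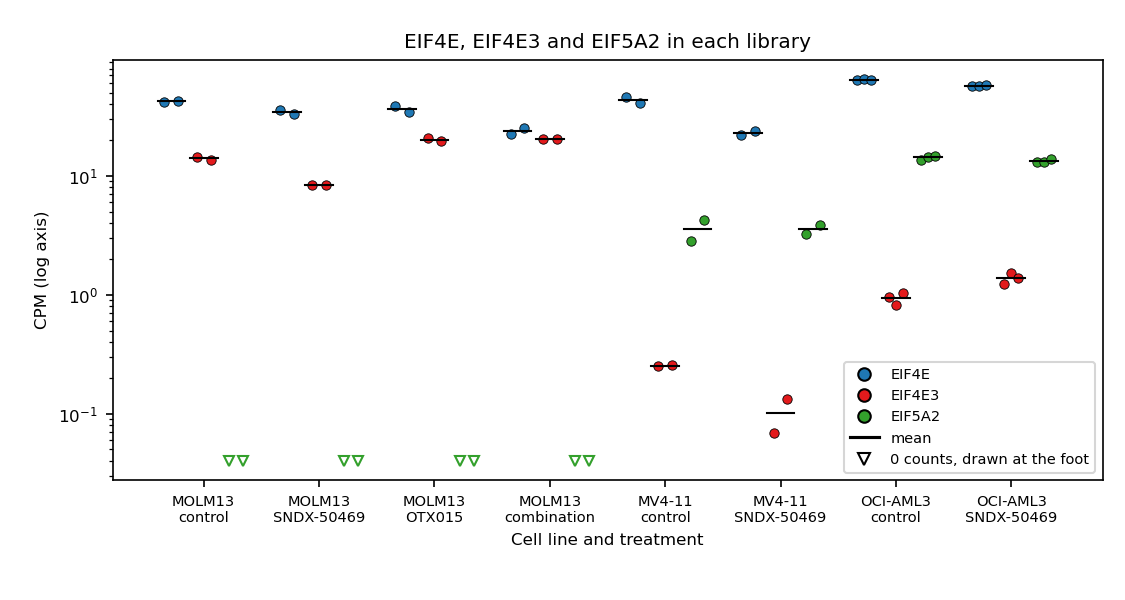
Level of EIF4E (blue), EIF4E3 (red) and EIF5A2 (green) in CPM on a log axis for every library; black bars are means and open triangles at the foot are libraries with 0 counts. EIF5A2 has 0 counts in all 8 MOLM13 libraries, and EIF4E3 is at 14.0 CPM in the MOLM13 controls against 0.253 CPM in the MV4-11 controls.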

How the data were processed

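Total RNA of 18 libraries was sequenced, and the authors deposited a table of raw counts for 58037 gene IDs, which was used as deposited. The submitters' processing notes name STAR and hg38, whereas the study's methods name TopHat2 and Cufflinks. The counting program and its strand setting are unstated (not given in the sources used here), so overlapping, antisense and paralogous genes are uncertain. Symbols (40931 IDs named), gene types and transcript lengths came from GENCODE v44 and a table of gene names, and positions and promoters from RefSeq on GRCh38.p14. EEF1AKMT4 and EEF1AKMT4-ECE2 were not analysed here.

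Counts were fitted with edgeR 4.0.16 (R 4.3.3, limma 3.58.1; TMM, filterByExpr, quasi-likelihood F test, Benjamini-Hochberg over all genes tested), within each line for treatments and over all 18 libraries for differences between lines, whereas CPM were scaled over all 18. A gene was called at an adjusted p below 0.05 and a log2 change of at least 0.32 in size. The standard error is the size of the log2 fold change over the square root of F. Full statistics went to the 5 largest rises and falls among called members of each comparison, to EEF1A1 and EEF1A2, and to the paralog pairs of EIF4A, EIF4E, EIF4G, EIF4EBP and EIF5A, with exceptions for examples of each role. The members and lists were chosen with earlier results of these data known. Alternatives were DESeq2 1.42.0, limma-voom, other scalings, no filter, the adjusted p alone, a replicate block and leaving out each library, and the fit was tested on simulated data. Replicates were compared by chi-square per degree of freedom (1.46 to 43.9), and none was identical. The floor for a gene at 0 was 3 counts a library, scaled like the CPM, and covers counting error only. Same-numbered libraries deviated together little if at all (correlations of -0.032 to 0.080, the highest in MV4-11), and the numbers were not taken as pairs. Labels number the MV4-11 libraries differently in titles and descriptions, and the titles were used. Figures were drawn with matplotlib 3.10.9.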

Additional observations from a re-analysis of the deposited data

Results flagged for a closer look

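The response to SNDX-50469 differed between OCI-AML3 and MOLM13 for 2 members in a test of the difference itself. For EEF1A2 the OCI-AML3 response minus the MOLM13 response was 3.37 on the log2 scale, and for EIF4E3 it was 1.29. Groups of 2 or 3 libraries were not tested for single outlying libraries.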

How the results depend on the processing

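Counts of called factors kept within 1.5 times of those reported under the other scalings, DESeq2 and no filter, with these exceptions. With the adjusted p alone they were 31 (SNDX-50469 in MOLM13), 43 (OTX015), 45 (combination against OTX015), 35 (interaction) and 35 (OCI-AML3). A fit of all 18 libraries called 22 in MV4-11, and limma-voom with quantile normalization called 4 in OCI-AML3. Leaving out each library gave 3 to 4 calls with SNDX-50469 in MOLM13, 21 to 24 with OTX015, 42 to 43 with the combination, 36 to 40 against SNDX-50469, 25 to 29 against OTX015, 16 to 23 for the interaction, 8 to 11 in MV4-11, and 1 to 3 in OCI-AML3, with 1 without SNDX-50469 replicate 2. With the replicate number as a block there were 3, 24, 43, 38, 25 and 20 calls in the 6 MOLM13 comparisons, 15 in MV4-11 (14 lower, 1 higher) and 2 in OCI-AML3. No source used here says whether the numbers pair the samples. In MV4-11 the deviations correlated at 0.080 for same numbers. With 2 libraries a group, the value for different numbers is this one with its sign turned and adds nothing. There the block moved the calls over all genes from 3208 to 4029, so pairing in this line is unresolved.

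Some members changed sign under another setting, and the cause was not tested. Most of these values were small, but not all were near 0. With limma-voom EIF5A between MOLM13 and OCI-AML3 controls was at -0.316 ± 0.069 (limma adjusted p = 0.00051). Limma adjusted p-values were also below 0.05 for EIF4G1 with SNDX-50469 and EEF1A1 against OTX015 in MOLM13. The same held for EEF1A1 and EIF4EBP2 in OCI-AML3. With limma-voom EIF4G1 was at 0.12 with SNDX-50469 in MOLM13, EIF4A2 at 0.013 under the combination, EEF1A1 at -0.13 against OTX015 and -0.053 for the interaction, and in MV4-11 EIF4A1 at -0.018 and EIF5A2 at -0.11. With limma-voom in OCI-AML3 EEF1A1 was at 0.055, EIF4EBP2 at 0.064, EIF4G1 at 0.0031 and EIF4G3 at 0.074. With limma-voom the OCI-AML3 minus MOLM13 response was 0.14 for EIF5A2 and -0.070 for EIF5A, and between MOLM13 and OCI-AML3 controls EIF4A1 was at 0.0074 and EIF5A at -0.32. As EIF5A2 had no counts in MOLM13, its value for the response difference carries no meaning. With no scaling EIF4A2 was at 0.035 under the combination, EIF4E3 at 0.031 against OTX015, EIF5A at -0.056 between MOLM13 and OCI-AML3 controls, and in OCI-AML3 EEF1A1 at 0.039, EIF4A1 at 0.030, EIF4EBP2 at 0.027 and EIF4G3 at 0.053. With upper-quartile factors EIF4E3 was at 0.031 against OTX015 and EIF4G3 at 0.0058 in OCI-AML3. With all 18 libraries in 1 fit EIF4E3 was at 0.0094 against OTX015, EIF4G3 at 0.032 for the interaction and EIF5A2 at -0.039 in MV4-11, where it was at -0.0050 with RLE factors. With no filter EIF4G3 was at -0.0042 against OTX015 and 0.011 in OCI-AML3.

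Leaving out each library, EIF4G3 ran from -0.0097 to 0.10 with SNDX-50469 in MOLM13, from -0.020 to 0.051 against OTX015, from -0.088 to 0.026 for the interaction, from -0.031 to 0.036 in OCI-AML3 and from -0.082 to 0.045 for the response difference. EIF4A1 ran from -0.10 to 0.12 against SNDX-50469, from -0.047 to 0.21 in MV4-11 and from -0.095 to 0.040 in OCI-AML3. EIF4E3 ran from -0.082 to 0.033 against OTX015, EEF1A2 from -0.064 to 0.23 and EIF5A2 from -0.27 to 0.37 in MV4-11, EEF1A1 from -0.022 to 0.0026 in OCI-AML3, EIF4G1 from -0.085 to 0.020 for the response difference, and EIF4E from -0.078 to 0.044 between MOLM13 and MV4-11 controls.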
